A study of Mus musculus with 12 samples.

Results

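The Nr4a family of orphan nuclear receptors comprises 3 genes, Nr4a1, Nr4a2 and Nr4a3, and was followed through an array study of repeated morphine exposure in mouse striatum. Each gene was represented by 1 probe set, taken as a row of the deposited table whose single symbol in the platform annotation was that of the gene. They were 3 of the 19935 genes with such a row. The family was chosen with earlier results of these arrays known, namely their differences from saline, so the levels below are a description and carry no p-value.

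Striatal RNA came from male Swiss-Albino mice aged 2 months, and each of the 12 Affymetrix Mouse Gene 1.0 ST arrays held equal amounts of RNA pooled from 4 animals. The butyrate-morphine group (3 arrays) received sodium butyrate, a histone deacetylase inhibitor, at 300 mg/kg and morphine, an opioid receptor agonist, at 20 mg/kg in each of 6 induction trials on alternate days. The morphine group (3 arrays) received vehicle and the same morphine dose in those trials. The saline group (6 arrays) received vehicle only. Both morphine groups were given 20 mg/kg morphine once more, 7 days after induction, and RNA was taken 1 h after that challenge. For the saline group the sources differ: its sample labels give a saline challenge, but the written protocol challenges every animal with morphine. A difference from saline is therefore either that of the whole morphine history with its challenge, or that of the history alone. No group received butyrate without morphine, and a pool hides the spread between its animals.

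The family's proteins are Nur77 (also NGFI-B, from Nr4a1), Nurr1 (from Nr4a2) and NOR-1 (from Nr4a3). They are transcription factors with a closed ligand pocket, so their activity is set mainly by how much protein the cell makes. Neurons switch the genes on within minutes of cAMP or calcium signals, through CREB and its CRTC coactivators at cAMP response elements (CREs) and through MEF2 factors. The receptors bind as monomers to the NBRE element, and Nur77 and Nurr1 also pair with retinoid X receptors. In the striatum, Nur77 and NOR-1 are produced by projection neurons that receive dopamine, whereas Nurr1 is best known for the identity of midbrain dopamine neurons and is also made in deep cortex and claustrum.

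The deposited values are differences from a saline baseline on a log scale taken as log2. Saline arrays 1 and 2, 3 and 4, and 5 and 6 mirrored each other in all 28815 rows, within 2e-06. The 6 saline arrays thus hold 3 independent values, the saline mean is 0 by construction, and levels of different genes cannot be ranked. The rounding of the stored numbers kept a coarse trace of level. It placed Nr4a1 at 8 to 16 on the log2 scale, like 23.6% of all rows. Nr4a2 and Nr4a3 fell in the class 4 to 8, like 76.4%. That class shows only that some stored value lay below 8, not that all did. Of 12 markers of striatal projection neurons, 11 lay at 8 to 16, the exception being the opioid peptide gene Pdyn.

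The promoter windows of the 3 genes are shown because the CRE is the element through which the family is induced. Each runs from 250 bases before to 50 bases after the annotated start, 5′ to 3′ on the gene's own strand, with RefSeq coordinates and sequence on GRCm38.p6. The windows are Nr4a1 at chr15:101266596-101266895 (plus strand), Nr4a2 at chr2:57123954-57124253 (minus strand) and Nr4a3 at chr4:48045055-48045354 (plus strand). Capitals mark CRE half-sites, TGACG on the gene's strand or CGTCA where the half-site lies on the other.
Nr4a1: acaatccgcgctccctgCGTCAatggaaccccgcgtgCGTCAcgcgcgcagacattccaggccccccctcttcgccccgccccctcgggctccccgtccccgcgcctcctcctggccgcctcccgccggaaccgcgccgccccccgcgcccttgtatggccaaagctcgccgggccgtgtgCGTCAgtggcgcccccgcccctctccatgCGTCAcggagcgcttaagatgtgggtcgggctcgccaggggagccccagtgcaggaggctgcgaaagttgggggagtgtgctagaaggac
Nr4a2: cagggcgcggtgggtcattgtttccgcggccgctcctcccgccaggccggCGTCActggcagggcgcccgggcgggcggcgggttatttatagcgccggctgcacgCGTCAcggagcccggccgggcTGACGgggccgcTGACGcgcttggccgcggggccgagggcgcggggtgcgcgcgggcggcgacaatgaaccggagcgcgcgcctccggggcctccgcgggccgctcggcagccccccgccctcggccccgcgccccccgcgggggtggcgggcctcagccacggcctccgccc
Nr4a3: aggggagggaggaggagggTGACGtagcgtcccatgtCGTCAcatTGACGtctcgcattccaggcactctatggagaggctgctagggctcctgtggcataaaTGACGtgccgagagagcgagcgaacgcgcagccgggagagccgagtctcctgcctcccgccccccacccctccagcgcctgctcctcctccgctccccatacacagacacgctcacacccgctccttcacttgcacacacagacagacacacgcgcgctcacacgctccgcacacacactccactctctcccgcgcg

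Each of the 3 windows held 4 CRE half-sites. In Nr4a1 all 4 lay on the other strand, beginning 233, 213, 69 and 40 bases before the start. In Nr4a2 they began 200 and 144 bases before the start on the other strand, and 123 and 111 bases before it on the gene's strand. In Nr4a3 they began 231, 205 and 147 bases before the start on the gene's strand, and 213 bases before it on the other. Among all 32851 windows of the RefSeq table, which gives 4163 genes more than 1 window, 20.8% held at least 1 half-site and 0.231% (76 windows) held at least 4. The Nr4a windows were also rich in G and C, at 72.3% in Nr4a1, 81.7% in Nr4a2 and 64.7% in Nr4a3, against a median of 52.7%. Among the 9690 windows with 60% or more G and C, 0.557% (54) held at least 4.

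The other elements searched on both strands were mostly without a match. The full palindromic CRE, TGACGTCA, which contains a half-site on each strand, was in none of the 3 windows and in 1.79% of all. The NBRE, AAAGGTCA, was in none of the 3 and in 1.51% of all. The CArG box of serum response factor was in none of the 3 and in 1.63% of all. The MEF2 core motif was in 3.19% of all windows and matched once in Nr4a2, from 167 to 158 bases before the start. These matches describe letters in a short window and do not show that a factor binds.

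**Figure D1:**
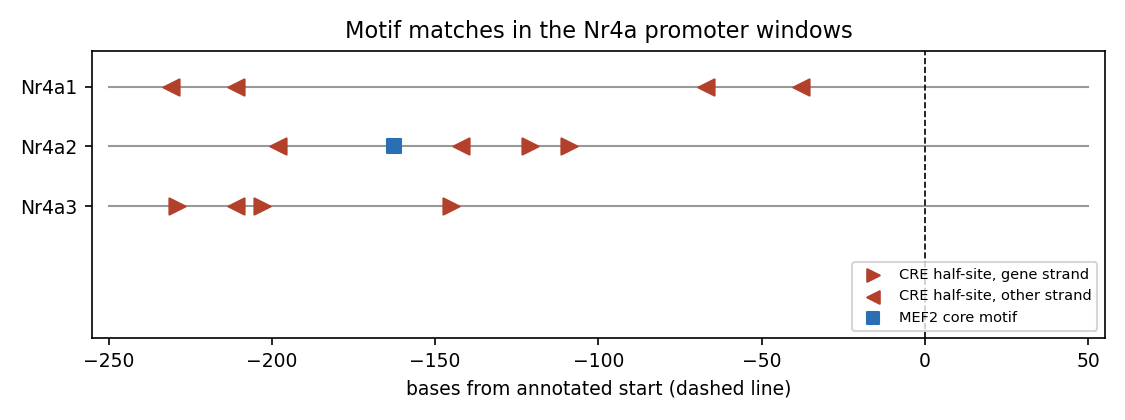
Motif matches in the promoter windows of Nr4a1, Nr4a2 and Nr4a3, by distance in bases from the annotated start (dashed line). Triangles are CRE half-sites, pointing right on the gene's strand and left on the other, and the square is the MEF2 core motif; each window holds 4 half-sites, and in all 3 genes these lie before the start.

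Nr4a1 was the family member farthest from saline. Its log2 differences were 0.85, 1.21 and 1.75 in butyrate-morphine arrays 1 to 3, and 1.26, 0.65 and 0.77 in morphine arrays 1 to 3. In the saline arrays they ran from -0.31 to 0.31, with a median of 0. All 6 arrays of the morphine-treated groups were above all 6 saline arrays, while the butyrate-morphine and morphine arrays overlapped each other. For this gene and Nr4a3, the share of all probe sets separating from saline in this way was not counted. Each mirrored saline pair centres on 0, so spread between pairs is absent from the saline range. The group means were 1.27 ± 0.45 in butyrate-morphine (SD, n = 3), 0.89 ± 0.33 in morphine (SD, n = 3) and 0 ± 0.21 in saline (SD, n = 6). Against saline this is a 2.41-fold level in butyrate-morphine (95% interval of the log2 difference 0.87 to 1.66) and a 1.86-fold level in morphine (0.50 to 1.29). These intervals come from a limma fit that counts the mirrored saline arrays as 6 independent ones. The intervals and adjusted p-values against saline, here and below, thus tend to be too small, as do the saline SDs. All comparisons share 1 estimate of spread, so the intervals and p-values between butyrate-morphine and morphine also tend to be too small.

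Nr4a3, the gene of NOR-1, moved the same way with smaller differences. It stood at 0.38, 0.48 and 0.82 in butyrate-morphine arrays 1 to 3, and at 0.38, 0.23 and 0.43 in morphine arrays 1 to 3. Saline arrays ran from -0.10 to 0.10, with a median of 0. The arrays of both morphine-treated groups again lay above every saline array and overlapped each other. The means were 0.56 ± 0.23 in butyrate-morphine (SD, n = 3), 0.35 ± 0.10 in morphine (SD, n = 3) and 0 ± 0.08 in saline (SD, n = 6). Relative to saline, the level was 1.47-fold in butyrate-morphine (interval 0.38 to 0.74) and 1.27-fold in morphine (0.17 to 0.53).

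Nr4a2, the gene of Nurr1, went the other way on average and varied most within the morphine group. It stood at -0.44, -0.12 and -0.36 in butyrate-morphine arrays 1 to 3, and at 0.05, -0.82 and -0.42 in morphine arrays 1 to 3. Saline arrays ran from -0.14 to 0.14, with a median of 0. Butyrate-morphine array 2 and morphine array 1 lay within the saline range, and the other 4 arrays of the morphine-treated groups lay below it. The means were -0.31 ± 0.17 in butyrate-morphine (SD, n = 3), -0.40 ± 0.43 in morphine (SD, n = 3) and 0 ± 0.10 in saline (SD, n = 6). In butyrate-morphine this is 0.809 of the saline level (interval -0.60 to -0.01), and in morphine 0.758 of it (-0.70 to -0.10). In pooled tissue, fewer cells of a type and less RNA per cell cannot be told apart.

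**Figure D2:**
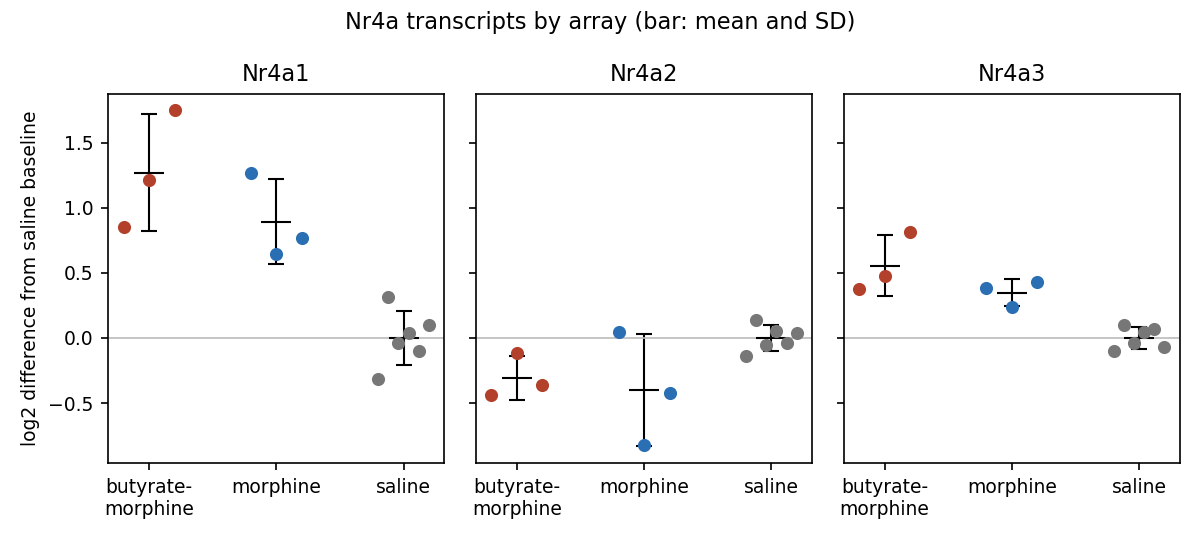
Log2 difference from the saline baseline of Nr4a1, Nr4a2 and Nr4a3 in every array (points), with the mean and SD of each group (bars). Nr4a1 and Nr4a3 lie above the saline arrays in all 6 butyrate-morphine and morphine arrays, while Nr4a2 reaches from -0.82 to 0.05 in the morphine arrays. The share of all probe sets separating from saline in this way was not counted.

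In the limma fit across all 21780 probe sets with 1 symbol, 2 of the 3 genes, Nr4a1 and Nr4a3, passed an adjusted p of 0.05 as higher in butyrate-morphine than in saline. Of all probe sets 1.76% passed as higher there and 0.592% as lower. The same 2 of 3 passed as higher in morphine than in saline, where 1.3% of all probe sets passed as higher and 1.15% as lower. On quantile-normalized values that split was 56 higher and 14 lower, against 284 and 250 on the values as deposited. Nr4a2 passed in neither comparison. Both comparisons use the same saline arrays, and the family was chosen from them, so these counts are given only as a description.

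The morphine calls depended on single arrays. Nr4a1 no longer passed without morphine array 1 (0.71) or morphine array 3 (0.96). Nr4a3 passed in only 3 of the 12 fits that left out 1 array, those without butyrate-morphine array 1 or 3 (0.35) or morphine array 2 (0.41). Without morphine array 1, Nr4a2 stood at -0.62 in morphine and passed as lower. In butyrate-morphine against saline, Nr4a1 and Nr4a3 passed in all 12 such fits, of which only 3 left out a butyrate-morphine array. Neither passed in that comparison after quantile normalization (0.75 and 0.38) or with only saline arrays 2, 4 and 6 (1.12 and 0.53). With only butyrate-morphine and saline in the fit, Nr4a2 (-0.31) passed as lower. In morphine against saline neither passed after quantile normalization (0.55 and 0.26), with array weights (0.89 and 0.38), or with 3 saline arrays (1.04 and 0.37 with arrays 1, 3 and 5; 0.74 and 0.32 with arrays 2, 4 and 6). Nr4a3 (0.35) also did not pass there with all rows of the table or with trend and robust eBayes.

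The comparison of butyrate-morphine with morphine asks what butyrate during induction added to the response. No family member passed in it, and neither did any other of the 21780 probe sets (0%), although 1719 genes had an unadjusted p under 0.05 in limma. Nr4a1 was 0.38 higher in butyrate-morphine (95% interval -0.08 to 0.83), a 1.30-fold level. Nr4a3 was 0.21 higher (5e-04 to 0.41), or 1.15-fold. Nr4a2 was 0.09 higher (-0.25 to 0.44), or 1.07-fold. Single arrays set the size of these differences. Leaving out 1 array at a time moved the Nr4a1 difference between 0.14 and 0.59, that of Nr4a3 between 0.08 and 0.30, and that of Nr4a2 between -0.12 and 0.32. The intervals and p-values of this comparison rest on a spread shared with the mirrored saline arrays, so they tend to be too small.

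**Figure D3:**
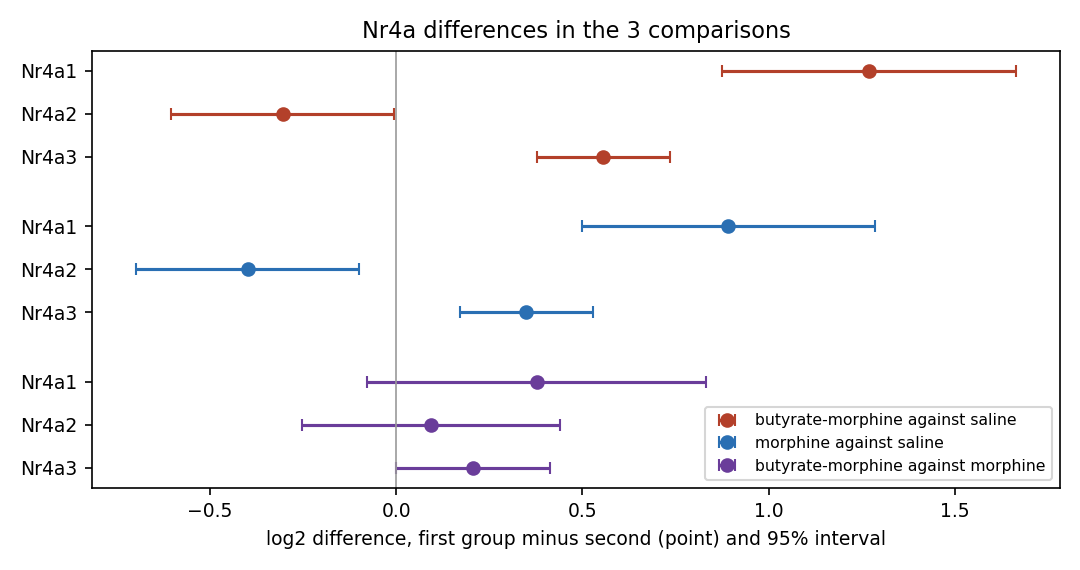
Log2 difference between group means (points) with its 95% interval (lines) for each Nr4a gene in the 3 comparisons, the group named before "against" minus the group named after it. Against saline, Nr4a1 and Nr4a3 lie above 0 and Nr4a2 below. Between butyrate-morphine and morphine, the Nr4a1 interval runs from -0.08 to 0.83. All intervals tend to be too narrow, because the fit counts mirrored saline arrays as independent.

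Over the 12 arrays, Nr4a1 and Nr4a3 followed each other with a Pearson correlation of 0.957, while Nr4a2 gave -0.355 with Nr4a1 and -0.432 with Nr4a3. All correlations here are descriptions over arrays that share group differences and the mirrored saline values. Among 1218 genes whose values ranged by at least 0.5, those most like Nr4a1 were Arc (0.985), a synaptic cytoskeletal protein gene, Fos (0.978), an AP-1 subunit gene, and Dusp1 (0.966), the gene of a phosphatase of mitogen-activated kinases. Nr4a3, Npas4 (0.955), an activity-dependent transcription factor gene, and Bcl6 (0.946), a transcriptional repressor gene, came next. Those most opposed to Nr4a1 were the small nucleolar RNA gene Snord55 (-0.898), Magef1 (-0.886) and the endothelial tight junction gene Cldn5 (-0.884).

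Nr4a3 shared Fos, Dusp1 and Bcl6 with Nr4a1 among its nearest genes. Its 6 were Fosb (0.970), another AP-1 subunit gene, Fos (0.969), Dusp1 (0.960), Nr4a1, the clock gene Per1 (0.946) and Bcl6 (0.936). Opposed to it were Snord55 (-0.898), the histone gene H4c4 (-0.873) and Cldn5 (-0.872). The 9 genes named for Nr4a2 were all different. Its nearest were the corepressor gene Tle4 (0.925), the cholecystokinin receptor gene Cckbr (0.920), the actin regulator gene Coro1a (0.918), Ccn3 (0.916), Igsf21 (0.916) and Mpp2 (0.912). The most opposed to Nr4a2 were the microRNA gene Mir106b (-0.907), Acnat1 (-0.905) and the tetraspanin gene Tspan33 (-0.889).

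The values of 4 of these genes, chosen for their likeness to Nr4a1, follow by array. Arc stood at 0.55, 0.62 and 1.02 in butyrate-morphine arrays 1 to 3, and at 0.93, 0.41 and 0.47 in morphine arrays 1 to 3. Fos stood at 0.59, 0.62 and 1.22 in the butyrate-morphine arrays, and at 0.69, 0.51 and 0.51 in the morphine arrays. As for Nr4a1, butyrate-morphine array 3 was the highest of its group and morphine array 1 the highest of its group. Dusp1 stood at 0.96, 1.06 and 1.34 in the butyrate-morphine arrays, and at 0.82, 0.66 and 0.80 in the morphine arrays. Npas4 stood at 0.87, 1.00 and 1.07 in the butyrate-morphine arrays, and at 0.79, 0.47 and 0.72 in the morphine arrays. For Dusp1 and Npas4 the butyrate-morphine arrays lay above all morphine arrays. Neither gene passed between those groups in limma (adjusted p = 0.266 and 0.442). The share of all genes separating in this way was not counted.

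In a list of 29 other immediate early genes, 9 rose and 0 fell in butyrate-morphine against saline, where 1.85% of all 19935 genes passed as higher and 0.637% as lower. The list's median was 0.166, against 0.0063 over all genes, and 24 of the 29 were above 0, against 53.6% of all genes. The largest rises were those of Dusp1 (1.12, adjusted p = 3.62e-06), Npas4 (0.98, adjusted p = 1e-04), Fos (0.81, adjusted p = 0.00162) and Arc (0.73, adjusted p = 0.00903). Per1 rose by 0.64 (adjusted p = 8.67e-05), the salt-inducible kinase gene Sik1 by 0.44 (0.000156), Btg2, an antiproliferative gene, by 0.39 (0.0445) and Fosb by 0.39 (0.00416). Trib1, a pseudokinase gene, rose by 0.31 (adjusted p = 0.00228). With 1 array left out, 8 to 10 of the 29 rose, and after quantile normalization 4 did. The Nr4a1 difference, 1.27, exceeded each of these, and that of Nr4a3, 0.56, lay between Per1 and Sik1.

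In morphine against saline 7 of the 29 rose and 0 fell, where 1.37% of all genes passed as higher and 1.29% as lower. The median was 0.091, against -0.0036 over all genes. Dusp1 rose by 0.76 (adjusted p = 0.000117), Npas4 by 0.66 (0.00279), Arc by 0.60 (0.0254), Fos by 0.57 (0.0166), Sik1 by 0.39 (0.000402), Per1 by 0.32 (0.0171) and Trib1 by 0.26 (0.00827). Fosb stood at 0.19 and Btg2 at 0.0015, and neither passed. Without morphine array 3 the rises numbered 4, and without morphine array 1 there were 6 rises and 3 falls. After quantile normalization 2 rose, and with either set of 3 saline arrays 4 did. Dusp1, Npas4, Sik1 and Trib1 passed in all 12 fits with 1 array left out, of which only 3 left out a morphine array. Fos and Per1 were lost without morphine array 3 (adjusted p = 0.0518 and 0.0934), and Arc without morphine array 1 or 3 or saline array 1 or 4 (adjusted p of 0.0504 to 0.0571).

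Other early genes stayed nearer to saline. Egr1, a zinc finger transcription factor gene, stood at 0.13 ± 0.18 in butyrate-morphine and -0.03 ± 0.23 in morphine (SD, n = 3 each), and Homer1, a synaptic scaffold gene, at -0.16 ± 0.05 in butyrate-morphine and -0.22 ± 0.18 in morphine (SD, n = 3 each). Neither passed in any comparison. Between butyrate-morphine and morphine, 0 of the 29 passed in limma. In that comparison 26 of the 29 were above 0, against 56.9% of all genes, with a median of 0.107 against 0.0106 over all genes. Of these 29, 21 had a window in the promoter table. In it, 15 of the 21 (71.4%) held at least 1 CRE half-site and 0 held 4 or more. Of all windows 20.8% held at least 1, but the 2 shares differ in kind. A gene with several windows was counted by its highest, and G and C content was not matched. Dusp1 and Homer1 held 3 each, and Fos, Npas4, Btg2, Egr2, Egr4 and Maff held 2 each. A full CRE, which counts as 2 half-sites, was in 3 of the 21 (14.3%), those of Dusp1, Btg2 and Maff. It was in 1.79% of all windows, a share that differs in kind in the same way.

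**Figure D4:**
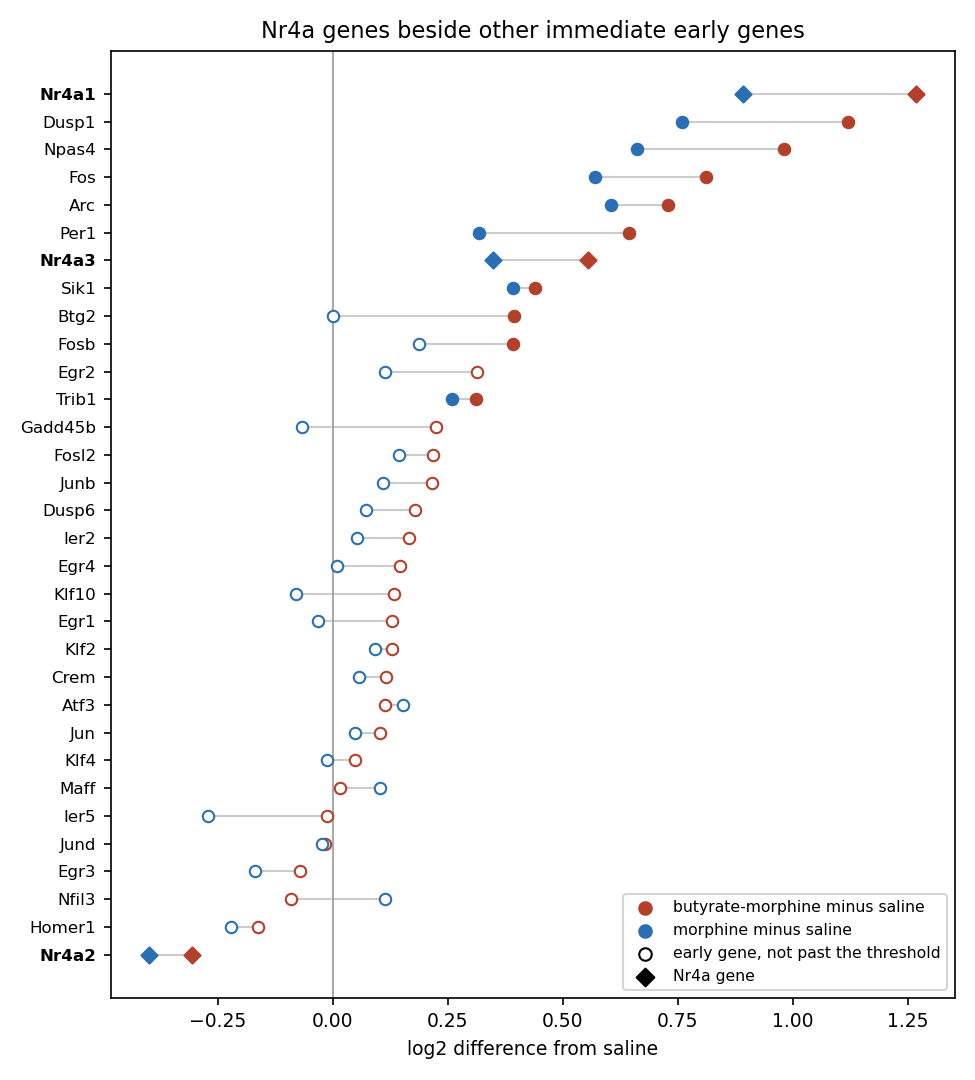
Log2 difference from saline of the 3 Nr4a genes (diamonds) and 29 other immediate early genes (circles), in butyrate-morphine (red) and morphine (blue); filled circles passed an adjusted p of 0.05 and open circles did not. Nr4a1 (1.27 in butyrate-morphine) heads the plot and Nr4a2 (-0.31) ends it, and the butyrate-morphine value is the higher one for 26 of the 29.

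The list of upstream regulators showed no call. It held CREB, CRTC, MEF2 and related inducers, and also the class IIa deacetylase genes Hdac4 and Hdac5, whose proteins repress MEF2 targets. Of its 22 measured genes, 0 passed in any of the 3 comparisons in limma. Their medians were -0.0097 in butyrate-morphine against saline, -0.058 in morphine against saline and 0.0611 in butyrate-morphine against morphine, beside 0.0063, -0.0036 and 0.0106 over all genes. The lowest adjusted p-values were those of Crtc1, a CREB coactivator gene, at -0.15 (0.0931), and of Mrtfb, a coactivator gene of serum response factor, at -0.12 (0.103), both in morphine against saline. Without morphine array 1, 4 of the 22 passed as lower in morphine, and without butyrate-morphine array 3, 1 did. Without morphine array 2, 1 passed as higher in butyrate-morphine.

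Among 20 measured dimer partners and coregulators, 1 passed. Rxrg, the retinoid X receptor of striatal neurons and a partner of Nur77 and Nurr1, stood at -0.31, -0.24 and -0.20 in butyrate-morphine arrays 1 to 3, at -0.32, -0.43 and -0.37 in morphine arrays 1 to 3, and between -0.20 and 0.20 in saline. All 6 arrays of the morphine-treated groups lay below the saline range, butyrate-morphine array 3 (-0.1985) only just below its lowest value (-0.196). The share of all genes lying below the saline range in this way was not counted. Rxrg fell by 0.37 in morphine, to 0.772 of saline (adjusted p = 0.0286), and stood at -0.25 in butyrate-morphine (adjusted p = 0.129). Its call was lost without morphine array 2 (adjusted p = 0.0832), morphine array 3 (0.099) or saline array 4 (0.059). Without morphine array 1, 2 of the 20 passed as lower in morphine, and without butyrate-morphine array 3, 1 passed as higher in butyrate-morphine. The other retinoid X receptors did not pass, with Rxra at 0.09 in butyrate-morphine and 0.02 in morphine, and Rxrb at -0.11 in butyrate-morphine and -0.21 in morphine. The deacetylase genes Hdac1, Hdac2 and Hdac3, whose proteins butyrate inhibits, stood at 0.08, 0.08 and 0.12 in butyrate-morphine against saline and did not pass. Rxrg, Rxra and the dopamine synthesis gene Ddc were the 3 genes with an NBRE match in their windows among all listed pathway genes. They are 2 of 13 partners and coregulators and 1 of 16 dopamine neuron targets with a window. Of all windows 1.51% held a match, but a gene with several windows has more chances of 1.

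The targets known for the family elsewhere were counted next. Against saline, 1.85% of all genes passed as higher and 0.637% as lower in butyrate-morphine, and 1.37% and 1.29% in morphine, so that 0 or 1 call in a list of 12 to 17 is near the background. Of 17 dopamine neuron genes driven by Nurr1 in midbrain, 0 passed in any comparison in limma, although 3 passed as higher in morphine without morphine array 1. The growth factor receptor gene Ret stood at -0.04 in butyrate-morphine and 0.21 in morphine, and the actin-binding gene Klhl1 at -0.31 in butyrate-morphine and 0.09 in morphine. Of 12 hormone axis and steroid genes, 0 passed, with the stress peptide receptor gene Crhr1 at -0.17 in butyrate-morphine and -0.07 in morphine. The steroid enzyme gene Hsd3b1 stood at -0.05 in butyrate-morphine and -0.10 in morphine. Without morphine array 1, 1 of the 12 passed as lower in butyrate-morphine.

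Of 17 metabolic targets described in muscle, fat and liver, 1 rose, beside 1.85% of all genes in butyrate-morphine and 1.37% in morphine. Pdk4, whose kinase restrains glucose oxidation in mitochondria, rose 1.87-fold in butyrate-morphine (0.91 ± 0.13, SD, n = 3, adjusted p = 6.71e-06) and 1.74-fold in morphine (0.80 ± 0.06, SD, n = 3, adjusted p = 2.11e-05). Without butyrate-morphine array 3, 2 of the 17 rose in butyrate-morphine. Of 12 genes tied to NR4A action in apoptosis and DNA repair, 1 rose, beside the same shares. Gadd45g, a stress-induced gene of growth arrest, rose by 0.45 in butyrate-morphine (adjusted p = 0.000345) and by 0.26 in morphine (adjusted p = 0.0161). The morphine call of Gadd45g was lost without morphine array 2 (adjusted p = 0.0576), after quantile normalization and with either set of 3 saline arrays. Without morphine array 2 or saline array 6, 2 of the 12 rose in butyrate-morphine.

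Tle4, the gene whose pattern was most like that of Nr4a2, is a marker of deep cortical layers. It was named for this likeness, and is 1 of the 10 measured claustrum and layer 6b markers. Of these 10, 5 were above 0 in butyrate-morphine against saline (median 0.0086) and 0 in morphine against saline (median -0.139). Tle4 stood at -0.42, -0.22 and -0.26 in butyrate-morphine arrays 1 to 3, and at -0.19, -0.56 and -0.30 in morphine arrays 1 to 3, against -0.10 to 0.10 in saline. Its fall in morphine, -0.35 (adjusted p = 0.0241), was lost without morphine array 2 or 3 or saline array 2 or 4 (adjusted p of 0.0513 to 0.0667). Cckbr, next in likeness, stood at -0.50, -0.23 and -0.40 in butyrate-morphine arrays 1 to 3, and at -0.16, -0.63 and -0.44 in morphine arrays 1 to 3, against -0.07 to 0.07 in saline.

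Markers of tissue next to the striatum moved with Nr4a2 across the arrays. The mean of 10 cortical excitatory neuron markers was -0.01, 0.09 and 0.01 in butyrate-morphine arrays 1 to 3, and 0.14, -0.47 and -0.13 in morphine arrays 1 to 3, against -0.03 to 0.03 in saline. Within both groups the 3 arrays had the same order as for Nr4a2, with butyrate-morphine array 1 and morphine array 2 lowest, and butyrate-morphine array 2 and morphine array 1 highest. Slc17a7, the vesicular glutamate transporter gene of cortical neurons, stood at -0.18, 0.11 and -0.09 in butyrate-morphine arrays 1 to 3, and at 0.17, -1.22 and -0.48 in morphine arrays 1 to 3. The cortical transcription factor genes Neurod6 (-0.27, 0.06 and -0.15) and Tbr1 (-0.18, 0.16 and -0.06) had this order in the butyrate-morphine arrays too. Slc17a7, Neurod6 and Tbr1 were chosen after their values were seen. Rorb (0.52, 0.16 and 0.10), a layer 4 gene, was highest in butyrate-morphine array 1. So was Rasgrf2 (0.08, 0.002 and -0.0095), another of the 10 markers. In the morphine arrays Rasgrf2 stood at 0.22, 0.04 and 0.36, highest in array 3 and so also in a different order from Nr4a2. The order of Nr4a2 was not particular to cortical markers. Means of the CREB, CRTC and MEF2 inducers had it too, at -0.02, 0.04 and 0.02 in butyrate-morphine arrays 1 to 3. In morphine arrays 1 to 3 those means were -0.004, -0.12 and -0.04. Midbrain dopamine neuron markers had the reverse order, with means of 0.01, -0.09 and -0.02 in the butyrate-morphine arrays. In the morphine arrays their means were -0.04, 0.13 and 0.03. Of the 10 cortical markers 0 passed in either comparison with saline, and without morphine array 1, 4 passed as lower in morphine. Without morphine array 2, 1 passed as higher in each group, and without butyrate-morphine array 3, 1 passed as higher in butyrate-morphine. In level, the list's mean lay between -0.01 and 0.09 in the butyrate-morphine arrays, and Nr4a2 between -0.44 and -0.12.

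The mean of 10 claustrum and layer 6b markers was -0.03, 0.02 and -0.02 in butyrate-morphine arrays 1 to 3, and -0.08, -0.21 and -0.16 in morphine arrays 1 to 3, against -0.06 to 0.06 in saline. Tle4 was the 1 of these 10 that passed, in morphine. Without morphine array 1, 3 fell in morphine and 1 in butyrate-morphine, and without morphine array 2, 1 fell in butyrate-morphine. Thalamic and septal markers ran the other way. Their mean was 0.46, -0.10 and 0.18 in butyrate-morphine arrays 1 to 3, and 0.06, 0.46 and 0.54 in morphine arrays 1 to 3, against -0.09 to 0.09 in saline. In both groups, the array with the highest Nr4a2 value had the lowest thalamic and septal mean. Of these 10 markers 3 rose in morphine and 0 passed in butyrate-morphine. Without morphine array 3, 1 rose in each group. Of 6 midbrain dopamine neuron markers, 0 passed in either comparison, and 1 passed as higher in morphine without morphine array 1. By the rounding of the stored values, 4 of 10 cortical, 3 of 10 claustral, 1 of 10 thalamic and septal and 1 of 6 midbrain markers lay at 8 to 16. The part of neighbouring tissue in the Nr4a2 values was not tested.

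**Figure D5:**
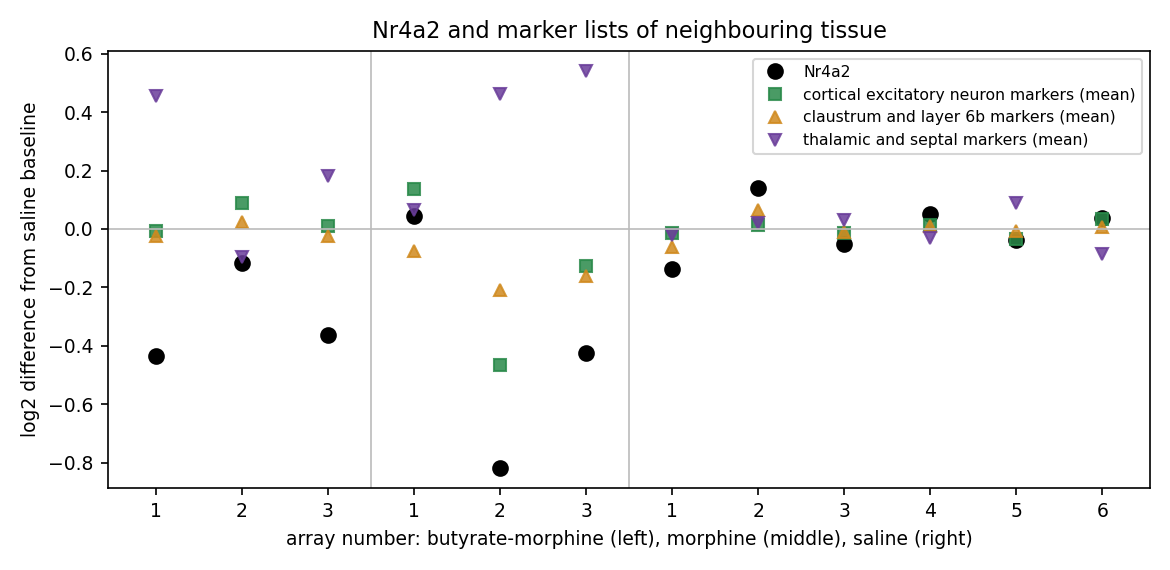
Log2 difference from the saline baseline in each array for Nr4a2 (circles) and for the mean of cortical excitatory (squares), claustrum and layer 6b (upward triangles) and thalamic and septal markers (downward triangles). In morphine array 2, Nr4a2 (-0.82) and the cortical mean (-0.47) are both the lowest of their group, and in butyrate-morphine array 1, Nr4a2 (-0.44) and the cortical mean (-0.01) are the lowest of that group.

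Other marker lists also held calls against saline, where 1.85% of all genes rose and 0.637% fell in butyrate-morphine, and 1.37% rose and 1.29% fell in morphine. Choroid plexus markers had means of 0.91 to 1.18 in the butyrate-morphine arrays and 1.22 to 1.44 in the morphine arrays, against -0.12 to 0.12 in saline, and 8 of 9 rose in butyrate-morphine and 9 of 9 in morphine. Of 9 endothelial markers 4 fell in each group, and of 8 microglia and monocyte markers 2 fell in butyrate-morphine and 3 in morphine. Of 12 striatal projection neuron markers, 0 passed in butyrate-morphine and 5 fell in morphine, where the list's mean per array ran from -0.20 to -0.13. The falls numbered 1 without morphine array 3, and 2 to 4 without any 1 saline array. Without butyrate-morphine array 3, 2 endothelial markers fell in butyrate-morphine. After quantile normalization, endothelial falls numbered 1 in butyrate-morphine and 2 in morphine, microglial falls 1 in each, and projection neuron falls 1 in morphine. Of 7 astrocyte markers 1 rose in each group (0 to 2 in butyrate-morphine with 1 array left out), and of 6 oligodendrocyte markers 0 passed in either. Nr4a1 and Nr4a3 were above saline in the same arrays, and the part of tissue makeup in their values was not tested.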

How the data were processed

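RNA of 12 pools was hybridised to 12 arrays, 1 per pool. The authors deposited a table of log2 differences, 28815 rows by 12 arrays. The log base is taken as 2 because the rounding places stored levels between 4 and 16, which does not prove it. The sources used here do not give how background was corrected, or how arrays were scaled and summarised. The baseline subtracted from each drug array is not known. Per the platform annotation, 21780 rows carried 1 symbol and were tested, 1605 several and 5430 none, and 21689 matched RefSeq (GRCm38.p6) by Entrez ID, which changed 0 symbols. Array medians ran from -0.0153 to 0.0136. Precision is limited by the number of arrays.

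The 3 comparisons were fitted in R 4.3.3 by limma 3.58.1 (lmFit and eBayes, all 12 arrays, 3 group means, Benjamini-Hochberg adjustment, threshold 0.05). Genes of the lists were tested on the mean of their probe sets over 19935 genes. The procedure was tested on simulated data.

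The members and the 17 lists (225 genes, 206 measured) were chosen with earlier results of these data known. Named genes are the members, for each member the 6 most alike and 3 most opposed genes, passing over predicted genes, and from each list the members called (up to 6 by p) or else the 2 with the lowest p. Btg2, Egr1, Homer1, Rxra, Rxrb, Egr2, Egr4, Maff, Ddc, Pdyn, Slc17a7, Neurod6, Tbr1 and the deacetylase genes were chosen after their values were seen, and genes of marker lists are given mainly as counts. Promoter windows came from RefSeq. Tried as alternatives were array weights, quantile normalization, a robust eBayes trend, centring on array medians, every row tested, the compared groups alone, replicate number as a block, either set of 3 saline arrays, 1 value per gene, and leaving out each array.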

Additional observations from a re-analysis of the deposited data

Results flagged for a closer look

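Klhl1, an actin-binding gene of dopamine neurons that Nurr1 drives in midbrain, was below the saline baseline in every butyrate-morphine array (-0.37, -0.11 and -0.46) and above it in every morphine array (0.10, 0.17 and 0.0019). The difference between butyrate-morphine and morphine was -0.40 (-0.4031), with an adjusted p of 0.354 in limma, so it did not pass. Saline arrays of Klhl1 ran from -0.27 to 0.27, which covers 1 of the 3 butyrate-morphine arrays and all 3 morphine arrays. Only the named genes were searched for such a split of signs, and its share over all genes was not counted.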

How the results depend on the processing

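For butyrate-morphine against saline, 512 probe sets passed. The number was 97 after quantile normalization, 218 with trend and robust eBayes, 978 with array weights, 1134 with only the 2 groups compared, and 135 with either set of 3 saline arrays. Leaving out 1 array gave 206 to 807. For morphine against saline, 534 passed. The number was 70 after quantile normalization (56 higher, 14 lower), 222 with trend and robust eBayes, 102 with saline arrays 1, 3 and 5, and 166 with saline arrays 2, 4 and 6. Leaving out 1 array gave 219 (without morphine array 3) to 1092 (without morphine array 1). For butyrate-morphine against morphine, 0 passed, against 2 with all rows and 1 with array weights. Leaving out 1 array gave 0 to 27, the highest without morphine array 1, with 12 without morphine array 3. The cause of these shifts was not tested.

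Of the listed pathway genes 11 passed in butyrate-morphine against saline, 10 in morphine against saline and 0 between them. After quantile normalization these numbered 6 in butyrate-morphine and 3 in morphine. With saline arrays 1, 3 and 5 the morphine count was 5, and with saline arrays 2, 4 and 6 it was 6. Leaving out 1 array gave 10 to 13 in butyrate-morphine, 6 to 20 in morphine (20 without morphine array 1, of which 9 were lower) and 0 to 1 between them.

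Nr4a1 moved to 0.75 in butyrate-morphine and 0.55 in morphine after quantile normalization, and the cause was not tested. Over the 12 fits with 1 array left out, Nr4a1 ran from 1.03 to 1.48 in butyrate-morphine and from 0.71 to 1.02 in morphine. Nr4a2 ran from -0.40 to -0.24 in butyrate-morphine and from -0.62 to -0.19 in morphine. Nr4a3 ran from 0.43 to 0.65 in butyrate-morphine and from 0.31 to 0.41 in morphine. Between butyrate-morphine and morphine, Nr4a1 ran from 0.14 to 0.59, Nr4a2 from -0.12 to 0.32 and Nr4a3 from 0.08 to 0.30. The direction of an Nr4a gene turned for Nr4a2 between butyrate-morphine and morphine alone, to -0.04 after quantile normalization, -9e-04 without butyrate-morphine array 2 and -0.12 without morphine array 2.

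With the replicate number as a block, 38 probe sets passed in butyrate-morphine against saline, 49 in morphine against saline and 0 between them, and the listed pathway genes numbered 6 in butyrate-morphine and 3 in morphine. Neither Nr4a1 nor Nr4a3 passed with that block, at 1.28 and 0.57 in butyrate-morphine and 0.91 and 0.36 in morphine. Same-numbered arrays of butyrate-morphine and morphine had correlated deviations of -0.105, -0.267 and -0.226, and 0 of 6 arrays were best matched by their own number. These correlations do not show that the numbers pair the arrays. They cannot exclude a pairing either, because an unknown baseline had already been subtracted from each drug array. Saline arrays numbered above 3 share their number with no drug array, so each was alone in its block. The main limits are 3 arrays per morphine-treated group, 3 independent saline values counted as 6 arrays, the unknown baseline of the drug arrays, and no measure of signal over background. A left-out saline array leaves its mirror image in the fit.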
